A study of Rattus norvegicus with 39 samples.

Results

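The small RNA of cauda epididymal sperm from vehicle control males was described on its own, with no comparison between doses. Members were chosen by the group label alone: every library labelled EGME0 was taken, which gave 10 of the 39 libraries of the series. The study dosed adult male Fischer rats with EGME, the solvent ethylene glycol monomethyl ether, and sequenced sperm small RNA afterwards. The other 3 groups, at 50, 60 and 75 mg/kg/d, were used only to find table rows that repeat in all 39 libraries. Control males were wild-type, 11 to 12 weeks old per the labels, received water by oral gavage (0 mg/kg/d of EGME) on 5 days, and gave sperm 5 weeks after the last dose. Each library held the RNA of 1 male and is named by its replicate number, which was 1, 2, 9, 10, 17, 18, 25, 26, 33 or 34. Spread and p-values are therefore between males. Every library started from 10 ng of RNA and ran on a sequencing chip with no other control library, so chip and male cannot be told apart.

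Mature sperm are nearly silent in transcription and carry a small RNA cargo that is partly left from spermatogenesis and partly gained in the epididymis. That cargo is known for fragments of tRNA, for miRNAs and for piRNAs, the small RNAs that silence transposons in the male germ line. A miRNA pairs with its target mainly through its seed, bases 2 to 8 counted from the 5′ end, so miRNAs with the same seed are grouped as a family, and each miRNA hairpin can give a mature strand from its 5′ side (5p) and from its 3′ side (3p). A tRNA is named here by its amino acid and its anticodon, and tRNAs that carry the same amino acid with different anticodons are called isoacceptors.

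The leading miRNAs are shown first because their shared seeds set how the miRNA counts divide. The sequences come from RefSeq (assembly GRCr8), which matched 371 of the 405 miRNAs in the table, holding 94.8% to 96.8% of the miRNA counts of a library. Capitals mark the seed, and miRNAs with the same seed stand together.
miR-34b-3p: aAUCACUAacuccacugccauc
miR-34c-3p: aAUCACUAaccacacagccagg
miR-34c-5p: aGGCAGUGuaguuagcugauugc
miR-449a-5p: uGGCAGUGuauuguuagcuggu
miR-34b-5p: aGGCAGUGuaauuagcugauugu
miR-16-5p: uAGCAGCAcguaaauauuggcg
miR-15b-5p: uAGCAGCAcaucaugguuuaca
miR-191a-5p: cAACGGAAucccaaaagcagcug
miR-19b-3p: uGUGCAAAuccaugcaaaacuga
miR-19a-3p: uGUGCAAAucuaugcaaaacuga
miR-7a-5p: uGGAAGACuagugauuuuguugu
miR-741-3p: aAAGAUGCcacgcuauguagau
let-7a-5p: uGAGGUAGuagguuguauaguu

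The 10 libraries held 714467 to 14442713 counts over the 4 deposited tables. Replicate 33 was the shallowest, at 1098 miRNA counts against 7575 to 38208 in the other libraries. Replicates 26 and 33 had the fewest counts and stood apart from the other 8 in several measures given below. Replicate 10 held nearly all counts of the striated muscle miRNAs miR-1, miR-133 and miR-206. Values that these libraries move by much are given with and without them.

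Counts from the tRNA table made up most of each library. The tRNA table, of 402 genomic tRNA genes, held 65.1% ± 9.99 of the counts (SD, n = 10 here and throughout unless stated), from 46.7% in replicate 25 to 79.3% in replicate 10, with a median of 64.5%. The RNAcentral table, a catalogue of noncoding RNA from many sources, held 22.8% ± 7.40 (12.3% in replicate 10 to 36.8% in replicate 33). The ncRNA table, of Ensembl noncoding transcripts, held 11.9% ± 4.84, from 7.36% in replicate 2 to 23.9% in replicate 25, where the next library had 14.9%. The miRNA table held 0.178% ± 0.0731, from 0.108% in replicate 10 to 0.312% in replicate 1. The tRNA table held 54.6% or more in each of the other 9 libraries, and replicate 25 was lowest for tRNA and highest for ncRNA. Without replicates 26 and 33 the RNAcentral share was 20.3% ± 5.52 and the tRNA share 66.9% ± 10.4 (SD, n = 8).

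These shares depend on how repeated rows are treated. Of the 402 tRNA rows, 200 had a mean of at least 20 counts and exactly the same counts as another row in all 39 libraries, against 0 such rows in the miRNA table, 6 in the ncRNA table and 92 of the 78572 RNAcentral rows. How reads that match several genes were tallied is not given in the sources used here, but a sum over genes carries such a number once for each copy. When each repeated set was counted once, 47.6% of the tRNA counts were left, the tRNA share was 47.9% ± 11.3 and the miRNA share 0.271% ± 0.107. Whether the tables share reads is not given either, so the shares are of table entries, not of molecules.

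**Figure D1:**
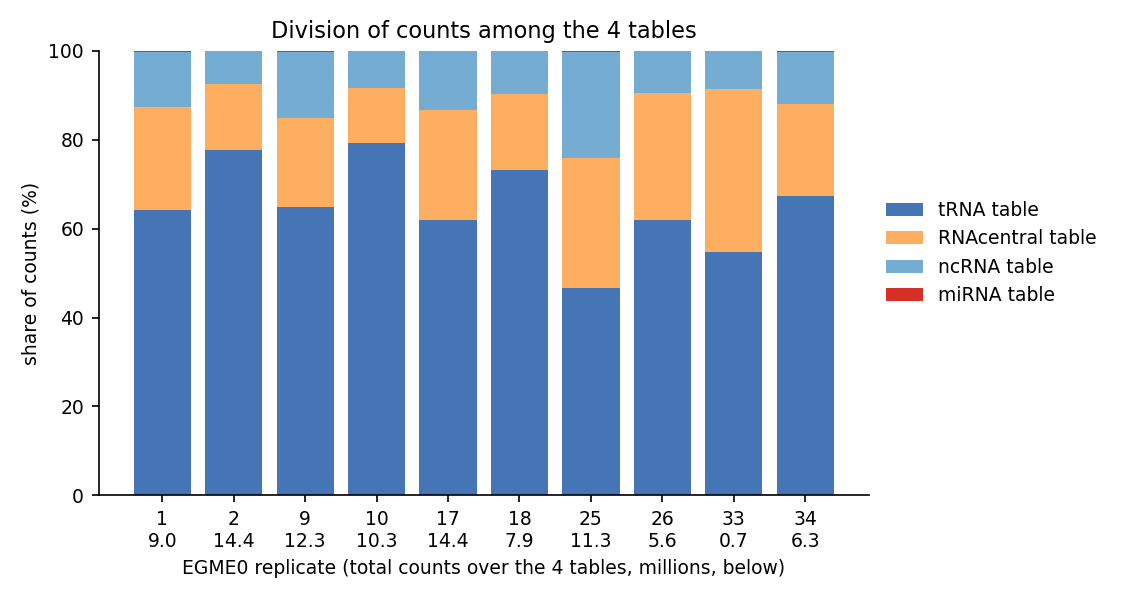
Stacked bars give the share of counts (%) in each of the 4 tables for the 10 EGME0 libraries, with each library's total count under its replicate number. The tRNA table is the largest part of every bar, replicate 25 has the largest ncRNA part at 23.9%, and the miRNA table, at most 0.312%, is too thin to see.

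A few miRNAs held most of the miRNA counts. Of the 405 listed miRNAs, 308 had a count in at least 1 library and 62 in all 10, and between 5 and 8 miRNAs were enough to reach 50% of a library's miRNA counts. Counts were not scaled by length, since the matched mature miRNAs were all 18 to 25 bases long. miR-34b-3p, a strand of a hairpin whose family is known for its part in spermatogenesis and in the making of motile cilia, ranked first at 13.6% ± 4.53 of miRNA counts. Its lowest value was 7.94% in replicate 2 (95% Wilson interval 7.56% to 8.33%), its median 13.01% and its highest 20.5% in replicate 1 (20.01% to 20.95%). Wilson intervals cover counting error only, and here the libraries lay much further apart than their intervals.

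miR-16-5p, a family member known to slow the cell cycle, followed at 11.0% ± 4.73, with a lowest value of 5.19% in replicate 33 (Wilson 4.03% to 6.67%), a median of 10.7% and a highest of 19.8% in replicate 2. miR-191a-5p came next at 10.8% ± 4.37, with a median of 8.64%. Its 2 high libraries were replicate 26 at 19.9% and replicate 33 at 16.9%, above the 7.20% to 12.8% of the other 8. Without them its mean was 8.94% ± 1.83 (SD, n = 8), in the same place.

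The first 3 places did not separate. miR-34b-3p stood above miR-16-5p in 6 of 10 libraries, miR-16-5p above miR-191a-5p in 6, and each of the 3 ranked first in at least 1 library. miR-191a-5p stood above the fourth, miR-19b-3p of the growth-promoting miR-17~92 cluster, in 8 of 10. miR-19b-3p held 5.32% ± 2.06 (2.73% to 8.71%) and miR-34c-5p 4.76% ± 2.06 (1.46% in replicate 33 to 7.76% in replicate 2), and these neighbours were level, with miR-19b-3p above in 6 libraries. Without replicates 26 and 33 they changed places, and let-7a-5p gave the tenth place to miR-425-5p.

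The rest of the leading 10 were miR-34c-3p at 3.62% ± 1.16, miR-449a-5p at 3.07% ± 0.985, miR-7a-5p at 2.96% ± 1.004, miR-741-3p at 2.42% ± 0.602 and let-7a-5p at 2.38% ± 0.896. Each stood above the next in only 6 or 7 of 10 libraries. miR-741-3p belongs to a testis-expressed cluster on the X chromosome, and let-7a-5p to a family known for differentiated cells.

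**Figure D2:**
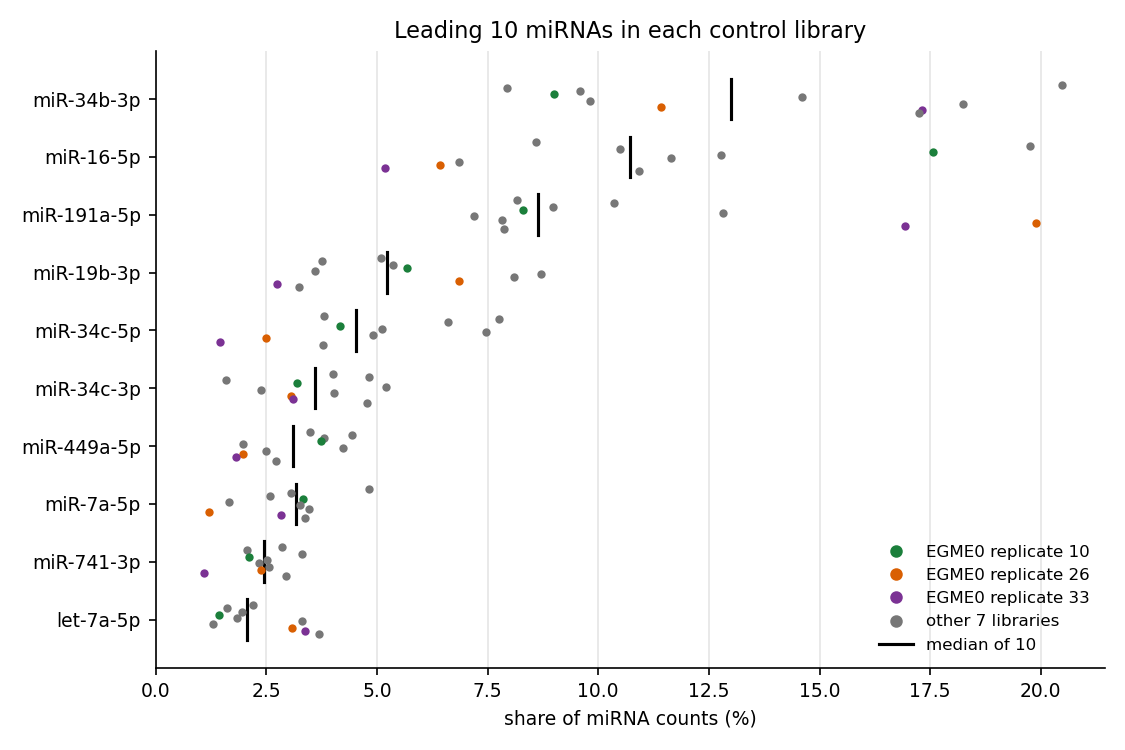
Each point is a library's share of miRNA counts (%) for a leading miRNA, and black bars are medians of the 10 EGME0 libraries; replicates 10, 26 and 33 are coloured. miR-191a-5p is highest in replicates 26 and 33 (19.9% and 16.9%), where miR-34c-5p is lowest (2.50% and 1.46%).

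Grouped by seed, the counts were more concentrated still, and 5 seeds held 54.8% of all miRNA counts on average. The seed AUCACUA of miR-34b-3p and miR-34c-3p held 17.2% ± 5.08 (11.2% to 24.5%), of which miR-34b-3p gave 78.3%. The seed AGCAGCA of miR-16-5p held 11.6% ± 4.61, and its 4 other members, miR-15b-5p, miR-195-5p, miR-497-5p and miR-322-5p, added little, since miR-16-5p gave 94.0% of it. The seed GGCAGUG, shared by the 5p strands of miR-34 and miR-449 printed above, held 9.18% ± 3.36 (3.73% in replicate 33 to 14.4% in replicate 2). No single member dominated that seed: miR-34c-5p gave 50.5% of it, and miR-449c-5p was listed with 0 counts. The let-7 seed GAGGUAG had 9 members, all with counts, at 5.52% ± 2.31 together. Its highest library was replicate 33, at 10.4%, against a median of 5.26%. Sequences starting with U made up 46.1% of the matched miRNAs and held 49.6% ± 5.28 of the matched counts.

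Strand balance was tested within libraries, to see which arm of each hairpin the sperm RNA held. Of 114 precursors listed with both arms, 51 had a mean of at least 10 counts over both arms. By edgeR's quasi-likelihood test with library as a block and Benjamini-Hochberg adjustment, 46 of the 51 had unequal arms (90.2%), 21 with the 3p arm higher (41.2%) and 25 with the 5p arm higher (49%). Unequal arms were thus the rule for the precursors tested. The called precursor nearest to equal arms was miR-471, at a log2 ratio of 3p to 5p of 1.33 (edgeR adjusted p = 0.0422), and it did not pass the exact sign-flip permutation test (adjusted p = 0.0606).

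miR-34b and miR-34c, which come from neighbouring hairpins, differed in this respect. The 3p arm of miR-34b lay at 7.94% to 20.5% of miRNA counts and its 5p arm at 0.455% to 2.03%, so the arms did not overlap. The log2 ratio of 3p to 5p was 3.37 (SE 0.366, edgeR adjusted p = 3.4e-16), with 3p higher in 10 of 10 libraries. By the exact sign-flip test its adjusted p was 0.00383. For miR-34c the arms overlapped, at 1.46% to 7.76% for 5p and 1.59% to 5.22% for 3p. Its log2 ratio was -0.32 (SE 0.3503, edgeR adjusted p = 0.370), with each arm higher in 5 of 10 libraries. The difference between the hairpins was not itself tested. The other precursors that did not pass were miR-106b, miR-126a, miR-742 and miR-743b, the last 2 from the X-linked cluster.

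The most one-sided precursors had almost no counts on the other arm. Towards 3p, miR-741 had 4444 counts over the 10 libraries against 2 (ratio 2222, exact 95% interval 615 to 18354), and miR-3580 had 2629 against 2 (ratio 1315, interval 364 to 10860). These intervals cover counting error in the summed counts only, not the spread between males. The 2 counts of miR-741-5p, and the 2 of miR-20a-3p below, each came from 1 library. The 5p arms of miR-23a, miR-23b and miR-342 had no count, so their 3p arms were at least 304-fold, 198-fold and 114-fold higher, taking 3 counts over the group as the limit of a count of 0. Towards 5p, miR-26a was at least 995-fold higher, and miR-20a had 3665 counts against 2 (ratio 1833, interval 507 to 15137). miR-425, miR-449a and miR-16 followed, with 4, 8 and 32 counts on the 3p arm against 3855, 5513 and 18925 on the 5p arm. All 10 of these passed, at edgeR adjusted p of 4.7e-18 or below and an exact sign-flip adjusted p of 0.00383 each. Within the X-linked cluster the favoured arm varied: miR-743a held 0.834% on 3p against 0.123% on 5p, and miR-463 0.126% against 0.435%.

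**Figure D3:**
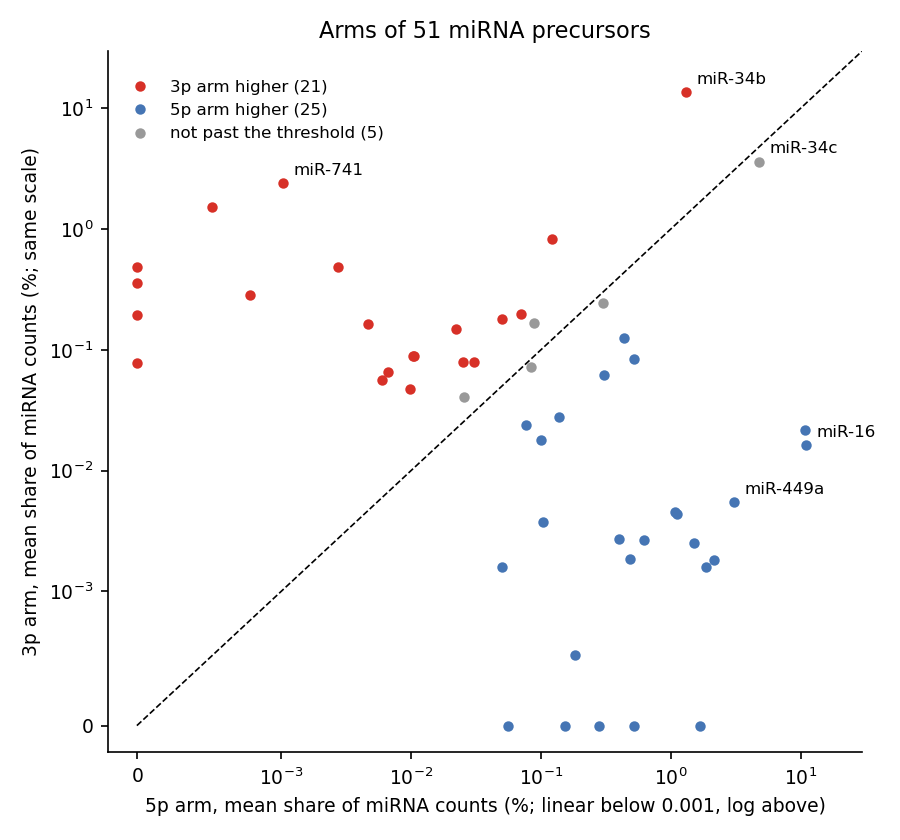
Each point is a precursor, placed by the mean share of miRNA counts (%) of its 5p arm and of its 3p arm over the 10 EGME0 libraries, on axes that are linear below 0.001 and logarithmic above. The dashed line marks equal arms: miR-34c lies beside it and miR-34b above it, and many of the 46 precursors past the threshold lie far from it, though some lie near.

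Germ cell miRNAs were measured, with markers of other cells beside them. The lists were chosen with earlier results of these data known and no other tissue was compared, so their shares do not test the sperm label. The germ cell list, made of the miR-34b/c strands printed above with miR-449a-5p and miR-449c-5p, had counts for 5 of its 6 members and held 26.3% ± 4.35 of miRNA counts, from 19.8% in replicate 26 (Wilson 18.9% to 20.7%) to 33.1% in replicate 1. The X-linked spermatogenic list had counts for 24 of 28 members and held 5.57% ± 1.06 (3.46% in replicate 33 to 6.57% in replicate 18). After miR-741-3p its largest members were miR-743a-3p at 0.834% ± 0.253 and miR-463-5p at 0.435% ± 0.126.

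Markers of other cells were low but not all absent. The blood cell list, of which 6 of 7 members were analysed here, held 0.145% ± 0.0982, with miR-144-3p at 0 and miR-451-5p, the red cell miRNA, at 0.0267% ± 0.0240. Its highest library was replicate 26 at 0.343% (Wilson 0.234% to 0.502%), and replicate 33 had 0 of 1098 counts, which allows up to 0.273% by a limit of 3 counts, or 0.349% by the Wilson interval. The epithelial list held 0.861% ± 0.207 (0.6249% to 1.29%), mostly from miR-200c-3p at 0.604% ± 0.225 and miR-200b-3p at 0.162% ± 0.0869, with miR-141-3p at 2 counts in all. The neural list held 0.459% ± 0.121, from miR-124-3p and miR-128-3p, with miR-9a-5p at 0. The liver miRNA miR-122-5p had 4 counts in all, and the gonadal list 58, all from miR-202-5p. In such bulk samples fewer cells of a type and less RNA per cell cannot be told apart, and the part of other cells in the results was not tested.

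The striated muscle miRNAs of the miR-1, miR-133 and miR-206 families appeared almost only in replicate 10. In replicate 10, miR-133a-3p had 171 of 11051 counts (1.55%), miR-1-3p 28 (0.253%) and miR-206-3p, which is specific to skeletal muscle, 11 (0.0995%). In the other 9 libraries together they had 2 counts, both of miR-133a-3p in replicate 9, among 154677. Further members of these families, found after the values were seen, did the same: miR-1b had 52 counts and miR-133b-3p 10 in replicate 10, and both had 0 elsewhere. Their sequences show that the counts fall on just 2 seeds, marked in capitals.
miR-1-3p: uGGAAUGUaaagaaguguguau
miR-1b: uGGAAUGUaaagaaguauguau
miR-206-3p: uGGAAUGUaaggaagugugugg
miR-133a-3p: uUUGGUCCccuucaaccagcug
miR-133b-3p: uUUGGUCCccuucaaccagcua
Members of a seed here differ by few bases, and how reads that match several were tallied is not given, so counts within a seed are uncertain. Together the 5 held 2.46% of the miRNA counts of replicate 10. The smooth muscle miRNAs were not high there: miR-145-5p held 1.42%, against a median of 1.48%, and miR-143-3p 0.0452%, against 0.0863%. The muscle list was 3.37% in replicate 10 and 1.60% ± 0.530 without it (SD, n = 9), and the next highest library, replicate 33 at 2.73%, had miR-145-5p as its only member with a count. Replicate 10 held 21.1% germ cell, 0.652% epithelial and 0.109% blood cell miRNAs, all within the range of the other libraries. Another miRNA of striated muscle, miR-499-5p, did not share the pattern, with 13 counts over 4 other libraries and 0 in replicate 10. The source of the counts in replicate 10 was not tested.

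miR-375-3p, a miRNA of neuroendocrine and secretory epithelial cells, set replicates 26 and 33 apart. It held 5.03% and 5.28% there, against 0.462% to 1.94% in the other 8, whose mean was 1.18% ± 0.533 (SD, n = 8). Its tagwise biological coefficient of variation was 0.755, the highest among miRNAs that passed edgeR's filter on low counts and averaged 20 or more. In the same 2 libraries, miR-16-5p, miR-34c-5p and miR-34b-5p were below all 8 others, at 6.43% and 5.19%, 2.50% and 1.46%, and 0.805% and 0.455%. Replicate 33 alone was high in miR-204-5p, at 1.64% against at most 0.518%. This split between libraries was noticed in the values and is a description, with no test.

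**Figure D4:**
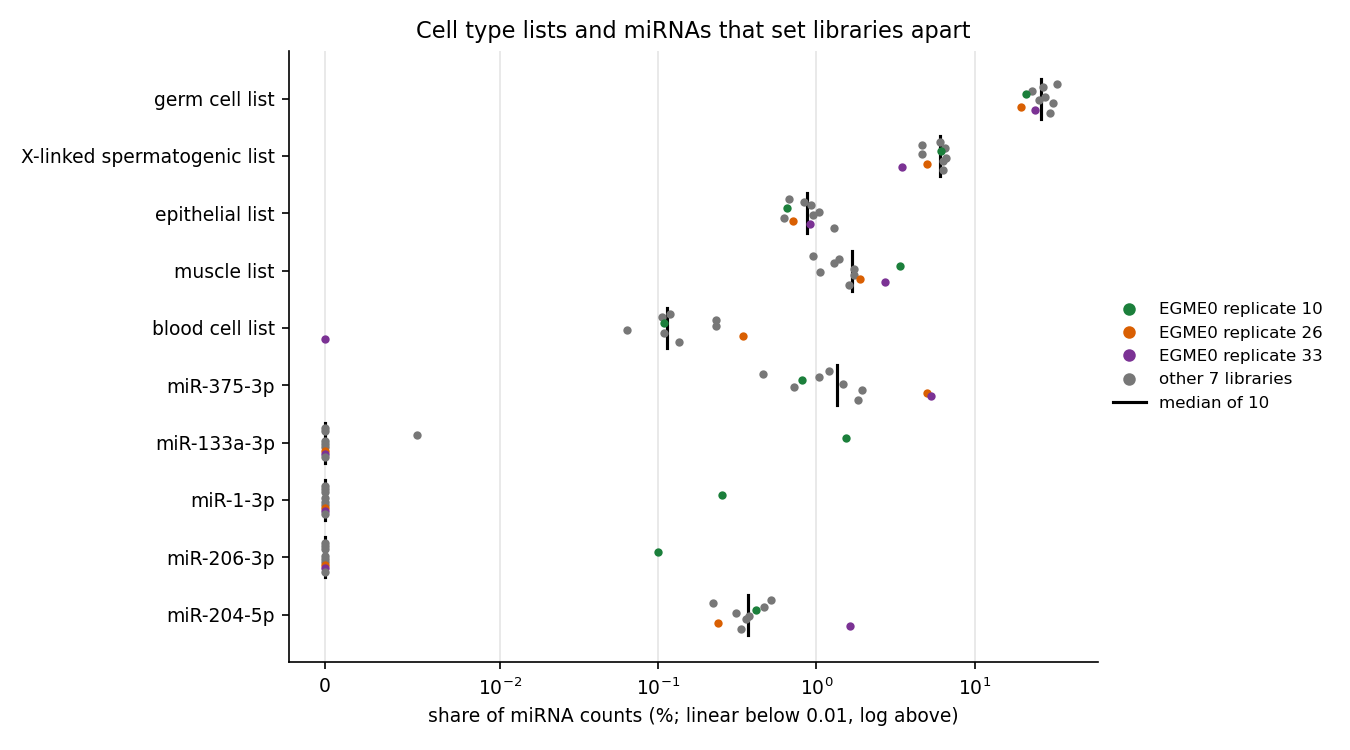
Each point is a library's share of miRNA counts (%) for a cell type list or a single miRNA, on an axis linear below 0.01 and logarithmic above, with medians of the 10 EGME0 libraries as black bars. miR-133a-3p, miR-1-3p and miR-206-3p lie above 0.0995% in replicate 10 and at or near 0 elsewhere, and miR-375-3p is highest in replicates 26 and 33.

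Families were also read as lists of members. The list of the miR-17~92 cluster, whose hairpins share 1 transcript, held 8.79% ± 2.99, mostly from miR-19b-3p, miR-20a-5p at 1.88% ± 0.742 and miR-19a-3p at 0.736% ± 0.273. miR-92a-3p, of the same list, held only 0.0882% ± 0.0461. In the related miR-106b~25 cluster, at 1.63% ± 0.381, miR-93-5p held 1.09% ± 0.298 and miR-25-3p 0.286% ± 0.135. Members of the same list thus lay far apart in level. Counts of a mature miRNA do not show which hairpin they came from, so they cannot be assigned to 1 transcript. The let-7 list held 5.55% ± 2.30, led after let-7a-5p by let-7g-5p at 1.02% ± 0.467 and let-7c-5p at 0.809% ± 0.518. The miR-191 and miR-425 list, 2 hairpins of a shared host gene, had a median of 11.3% (9.08% to 21.3%), the miR-15/16 list held 11.6% ± 4.59 and the list of miR-103 and miR-107 0.649% ± 0.188. Among miRNAs past the filter on low counts, the most variable after miR-375-3p were miR-15b-5p and let-7b-5p, with tagwise coefficients of 0.539 and 0.528. The lowest tagwise coefficients past the filter were those of miR-151-5p at 0.319, miR-103-3p at 0.319 and miR-10b-5p at 0.324. A low coefficient did not mean a narrow range, since miR-103-3p ran from 0.182% in replicate 33 to 0.796% in replicate 10. miRNAs that the filter left out were not ranked, such as miR-672-5p, which averaged 22.1 counts and ranged from 0.0478% to 0.546%.

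Among tRNAs, serine and glycine led. Summed over genes, SerGCT held 24.6% ± 5.50 of anticodon counts (16.7% in replicate 33, median 25.6%, 30.5% in replicate 1) and GlyGCC 23.5% ± 3.56 (19.6% in replicate 33, median 22.4%, 29.7% in replicate 25). The order of the 2 did not hold across libraries, since SerGCT was higher in 5 of 10. MetCAT, which covers initiator and elongator methionine tRNA, came next at 7.04% ± 1.98 and lay below GlyGCC in 10 of 10 libraries. GlyTCC held 5.56% ± 1.07, GluTTC 3.97% ± 1.21, LeuAAG 3.42% ± 1.02, SeCTCA 2.97% ± 1.05, ValCAC 2.87% ± 1.21, AsnGTT 2.67% ± 0.930 and SerAGA 2.52% ± 0.536. The first 5 anticodons of a library held 65.0% ± 4.09 of its counts. By amino acid, glycine held 31.6% ± 3.49 and serine 29.1% ± 6.14. The tables give counts per gene with no read length, so tRNA fragments and whole tRNA were not told apart, and no value was scaled by length.

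Other anticodons that are often named in sperm as sources of tRNA fragments were less abundant. GlyCCC held 2.50% ± 0.447, GluCTC 0.435% ± 0.253, LysCTT 0.319% ± 0.155 and HisGTG 0.162% ± 0.0403. GluCTC ranged from 0.178% in replicate 2 to 0.929% in replicate 26. It was well below GluTTC, its isoacceptor, in every library.

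The lead of GlyGCC came with the number of its genes. All 15 GlyGCC genes had counts, but 7 shared a mean of 108852 counts and another 7 a mean of 96721, identical within each set in every library. SeCTCA, the tRNA of selenocysteine, has 1 gene on chromosome 1 of Rnor_6_0, which had a mean of 163108 counts. When each repeated set was counted once, GlyGCC held 7.15% ± 1.31 and SerGCT 31.3% ± 6.39, and when only the largest gene of each anticodon was taken they held 7.68% ± 1.75 and 19.9% ± 4.77. By the largest gene the order was SerGCT, SeCTCA at 11.8% ± 4.01, MetCAT at 10.1% ± 2.91, GlyGCC and GlyCCC at 6.60% ± 1.75. SerGCT thus stayed first under each way of summing, while GlyGCC ranked 2 by either sum and 4 by its largest gene. Taking the largest gene was chosen after seeing the data.

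Single genes showed the same pattern. The gene with the highest share of the tRNA table was trna10567-SerGCT on chromosome 1, at 4.94% ± 1.08. The SerGCT genes trna10835 on chromosome 10, trna3899 on chromosome 17 and trna8934 on chromosome 3 had counts identical to each other, at 4.88% ± 1.10 each. After the SerGCT genes came trna1937-SeCTCA on chromosome 1 at 2.97% ± 1.05, trna3895-MetCAT on chromosome 17 at 2.53% ± 0.781, trna10828-GlyGCC on chromosome 10 at 1.81% ± 0.381 and trna4110-GlyCCC on chromosome 2 at 1.64% ± 0.427. The largest GlyTCC gene, trna10838 on chromosome 10, held 0.864% ± 0.180 and had 5 identical copies in the table. The largest GluTTC gene, trna3402 on chromosome 1, held 0.609% ± 0.171 and had 3. Genes with the same or nearly the same counts cannot be told apart, so a chromosome here is where a listed copy lies, not where the reads came from.

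**Figure D5:**
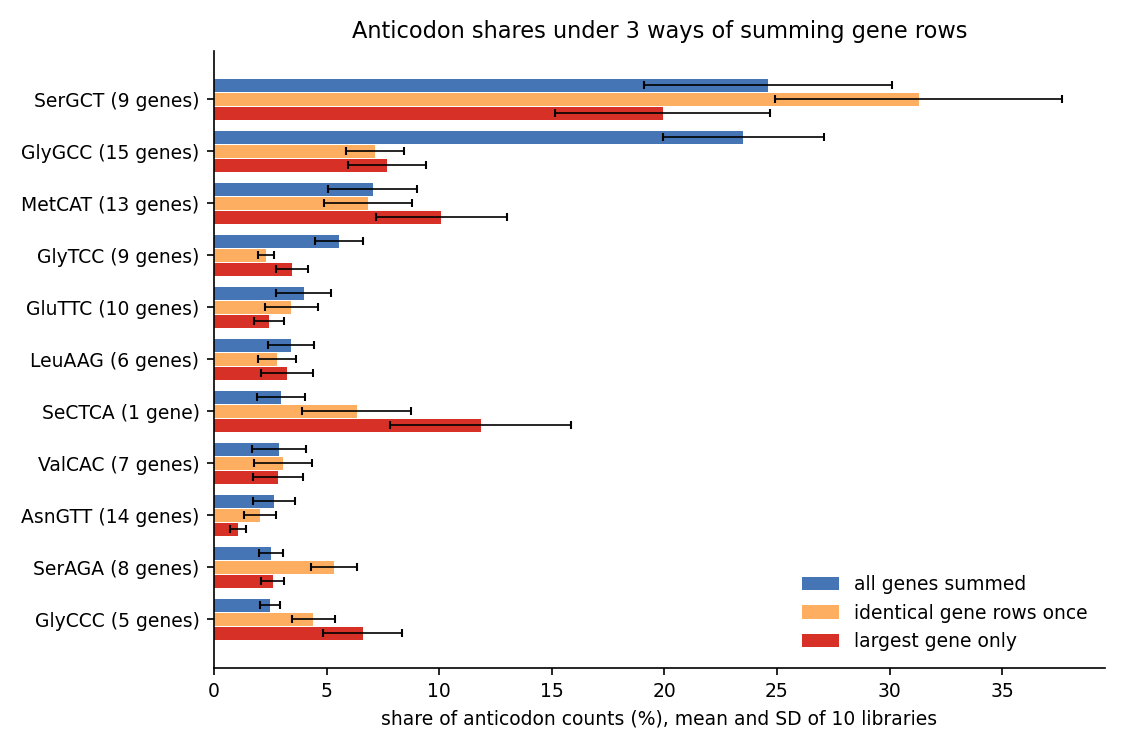
Bars give the share of anticodon counts (%; mean, with SD of the 10 EGME0 libraries as error bars) of the 11 leading anticodons under 3 ways of summing gene rows, with the number of genes in brackets. GlyGCC goes from 23.5% to 7.15% when identical rows are counted once, and SeCTCA, with 1 gene, from 2.97% to 11.8% by the largest gene.

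Summed over genes, isoacceptors differed within libraries in each of the 8 pairs compared. The pairs were chosen with earlier results of these data known, so the p-values are not an independent test of them. A two-sided exact sign-flip permutation test was used, adjusted by Benjamini-Hochberg over the 8 pairs. The smallest p that this test can give with 10 libraries is 0.00195. GlyGCC was higher than GlyCCC by 3.24 ± 0.198 on the log2 scale (SD, n = 10, exact adjusted p = 0.0026), but by only 0.70 ± 0.210 with repeated rows once and 0.23 ± 0.261 by the largest gene, and was higher in 10 of 10 libraries each time. GlyGCC was higher than GlyTCC by 2.09 ± 0.428, and SerGCT higher than SerAGA by 3.28 ± 0.243, both in 10 of 10 libraries. GluCTC to GluTTC had a log2 ratio of -3.32 ± 0.541, and GluTTC was higher in 10 of 10 libraries. That ratio was -4.85 with repeated rows once and -3.65 by the largest gene. ValCAC was higher than ValAAC by 1.48 ± 0.435 in 10 of 10 libraries, and GlnCTG to GlnTTG had a log2 ratio of -0.79 ± 0.125, with GlnTTG higher in all 10. The glutamine ratio was -1.63 with repeated rows once and -2.89 by the largest gene, so its size depended on how rows were summed. By the largest gene GlyGCC to GlyTCC was 1.14, and with repeated rows once SerGCT to SerAGA was 2.55 and ValCAC to ValAAC 2.02. Those 5 pairs had the same exact adjusted p of 0.0026.

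The other pairs varied in direction. LysCTT to LysTTT had a log2 ratio of -0.84 ± 0.749 (exact adjusted p = 0.0156), with LysCTT higher in 2 of 10 libraries. LeuCAA was higher than LeuTAA in 9 of 10 libraries, by 0.997 ± 0.713 (exact adjusted p = 0.0067), but by the largest gene the value was -0.37 ± 0.714, with LeuCAA higher in 4 of 10 (exact adjusted p = 0.141). The direction of the leucine pair therefore depended on whether 3 LeuCAA genes and 2 LeuTAA genes were summed.

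Replicates 26 and 33 also stood apart in tRNA. SerGCT was below all 8 other libraries, at 17.6% and 16.7% against 19.2% to 30.5%. MetCAT was above them, at 10.2% and 10.8% against 4.72% to 7.80%, as were ValCAC at 4.40% and 5.39% and AsnGTT at 3.65% and 4.73%. Without both, SerGCT held 26.5% ± 4.36 and MetCAT 6.17% ± 0.865 (SD, n = 8), with the first 7 anticodons in the same order. By tagwise coefficient the most variable anticodons were TyrGTA at 0.442 and IleTAT at 0.424. The lowest coefficients were those of ArgTCG at 0.216 and ValAAC at 0.227.

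The ncRNA table was nearly all mitochondrial ribosomal RNA, the RNA core of the mitochondrial ribosome. Its 2 transcripts held 99.2% ± 0.627 of the table (97.7% in replicate 26, median 99.5%, 99.6% in replicate 25), and the table's share of a library was therefore the share of these 2. The transcript ENSRNOT00000069133 held 56.3% ± 4.42 and ENSRNOT00000040038 43.0% ± 4.81, not scaled by their lengths. The first had more counts in 9 of 10 libraries (exact sign-flip permutation p = 0.00391). The exception was replicate 25, the library with the highest ncRNA share, where the ratio of the first to the second was 0.898, against a mean of 1.33 ± 0.244.

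The small remainder, 926 to 12002 counts a library, was led by misc_RNA, Ensembl's class for RNAs outside its other labels. It held 0.647% ± 0.547 of the table and 83.4% ± 6.26 of the remainder. In replicates 26 and 33 it held 2.05% and 1.12%, above the 0.312% to 0.590% of the other 8, whose mean was 0.413% ± 0.0978 (SD, n = 8). snRNA, the RNA of the splicing machinery, held 0.0357% ± 0.0294 and was likewise highest in those libraries, at 0.0868% and 0.0930%. Such shares rise where mitochondrial rRNA is lower, and it was 97.7% and 98.5% there. Within the remainder misc_RNA held 90.2% in replicate 26 and 72.9%, its lowest value, in replicate 33. snRNA held 3.82% and 6.05% of the remainder there, and was highest in replicate 1 at 7.98%. Of the whole table, lincRNA held 0.0478% ± 0.0621 and processed transcripts 0.0224% ± 0.0266, both highest in replicate 33. Without that library they held 0.0293% ± 0.0222 and 0.0144% ± 0.00838 (SD, n = 9). The nuclear rRNA class held 0.0179% ± 0.0102, the class miRNA 0.0034% ± 0.0014 and snoRNA 0.0011% ± 0.0026. The snoRNA mean rested on 5 counts in replicate 33 and was 0.000251% ± 0.000285 without it (SD, n = 9). The classes antisense, sense_intronic, Mt_tRNA, ribozyme, retained_intron, scaRNA and pseudogene had at most 20 counts each over all 10 libraries.

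In the RNAcentral table, rRNA and tRNA together made up most counts. rRNA held 44.0% ± 7.29 (34.1% in replicate 26 to 55.6% in replicate 33) and tRNA 42.4% ± 7.08 (28.8% in replicate 33 to 51.9% in replicate 26), and rRNA was higher in 5 of 10 libraries. Replicates 26 and 33 lay at opposite ends of both classes, so they were not alike here. The largest tRNA entry, URS0000221625, held 15.9% of the table by itself (9.43% to 28.9%). The class lncRNA held 4.28% ± 1.80, of which a single entry, URS0000B2D83F, gave 58.1%. The class lncRNA was higher in replicates 26 and 33, at 6.48% and 8.36%, than in the other 8, at 2.50% to 4.56%. otherRNA held 3.69% ± 0.705, microRNA 0.384% ± 0.0803 and srpRNA, the RNA of the signal recognition particle, 0.311% ± 0.113. Rows with no class held 0.445% ± 0.325. snoRNA (0.0221%), snRNA (0.0185%), miscRNA (0.0122%), ncRNA (0.0108%), rnase (0.0020%), asRNA (0.0002%) and gRNA (0.0002%) followed as means.

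piRNAs were many in kind but held a small part of the RNAcentral counts, far below rRNA and tRNA. Their 838905 counts over the 10 libraries were still more than the 165728 of the miRNA table. The RNAcentral table listed 41448 piRNAs, of which 25474 had a count and 482 had a count in all 10 libraries. The class held 4.45% ± 1.89 of the table, from 2.45% in replicate 25 to 7.89% in replicate 18. The 5 leading piRNAs gave 33.4% of the piRNA counts on average, from 8.78% to 57.4% by library. piR-rno-2141253 held 9.13% ± 4.96 of piRNA counts (3.82% to 19.9%) and piR-rno-49041 8.78% ± 7.32, and each was the higher of the 2 in 5 of 10 libraries. Summed over libraries piR-rno-49041 had more counts, 92441 against 78227. piR-rno-49041, piR-rno-49043 and piR-rno-49042, which have neighbouring catalogue numbers, varied most. piR-rno-49041 held 0.530% in replicate 25 and 20.5% in replicate 18, a 38.8-fold range. The corresponding ranges of piR-rno-49043 and piR-rno-49042 were 64.1-fold and 65.2-fold. All 3 were lowest in replicate 25, and replicates 2, 9, 17 and 18 were the 4 highest libraries for each of them. piR-rno-833849 held 5.04% ± 2.31 and ranged 4.31-fold, so the wide range was not shared by all leading piRNAs.

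The spread between males was summarised as the common biological coefficient of variation, edgeR's estimate of the relative SD between libraries beyond counting error. It was 0.365 for miRNAs (50 features passed the filter on low counts, with 91.2% of the counts), 0.307 for tRNA genes (322), 0.288 for anticodons (46), 0.299 for ncRNA transcripts (19) and 0.550 for RNAcentral entries (488). The ncRNA value rests on few transcripts and on the method, since it was 0.658 with library totals alone and 0.0695 by DESeq2. Without replicates 26 and 33 the values were 0.317, 0.254, 0.238, 0.226 and 0.425. No filter gave higher values for miRNAs, ncRNA and RNAcentral, at 0.687, 0.639 and 0.976.

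Libraries were most alike in tRNA and least alike in RNAcentral. As a description, the median Spearman rho over the 45 pairs of libraries, across features with a count, was 0.989 for tRNA genes, 0.978 for anticodons, 0.794 for miRNAs, 0.618 for ncRNA and 0.427 for RNAcentral entries. Among features averaging 10 or more counts the last 2 were 0.935 and 0.704. The features of a library share its depth, and rare features have few counts. Replicate 33, the shallowest, was the least like the others in 4 of these 5 sets, and replicate 26 in anticodons.

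Across males, 9 pairs of measures gave no relation past the threshold of 0.05 after adjustment over the 9. The number of miRNAs with a count (72 to 224) against log10 of total counts had Pearson r = 0.860 (permutation p = 0.0105, adjusted 0.0943) and Spearman rho = 0.636 (p = 0.0538, adjusted 0.484). Without replicates 26 and 33, the farthest from the median depth, r was 0.210, so the relation with total counts rests on them. The relation with a library's own miRNA counts was not tested. The number was 224 at 38208 miRNA counts (replicate 9), 173 at 18847 (replicate 2), 156 at 11051 (replicate 10) and 142 at 7575 (replicate 26). Replicates 17 and 18 went the other way, with 166 at 18100 and 169 at 12549. The RNAcentral share against log10 of total counts had r = -0.684 (permutation p = 0.0283, adjusted 0.127) and rho = -0.430 (p = 0.219, adjusted 0.753), and r = 0.0688 without the same 2 libraries. The share of germ cell miRNAs against epithelial and muscle miRNAs had r = -0.512 (permutation p = 0.132, adjusted 0.396) and rho = -0.394 (p = 0.264, adjusted 0.753), and r = -0.466 without replicates 1 and 26. Against blood cell miRNAs it had r = -0.332 (permutation p = 0.3495, adjusted 0.524) and rho = -0.0545 (p = 0.891, adjusted 0.973), and r = 0.105 without replicates 1 and 26. The other 5 pairs had Pearson adjusted p of 0.524 to 0.709. With 1 control library per chip, no value within a chip could be had.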

How the data were processed

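The authors deposited 4 tables of raw counts, reads on the sense strand per mature miRNA (405 rows), genomic tRNA gene (402), Ensembl noncoding transcript (1563) and RNAcentral entry (78572). The tRNA, ncRNA and RNAcentral tables are labelled Rnor_6_0. FastQC, Bowtie and DESeq2 are named per the submitters' processing notes, and their roles and versions, the counter and the treatment of reads with several matches are not given in the sources used here. Per the labels' protocols, extraction used mirVana with DNase treatment, and the Ion total RNA-seq kit made the libraries. All columns matched a sample (unmatched: 0). Replicates are separate males.

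Shares are percentages of a table's counts. Anticodon values (49) are sums over tRNA genes, and 2 rows naming none were left out. Spread was estimated with edgeR 4.0.16 in R 4.3.3 (TMM scaling, filterByExpr, robust estimateDisp). Arms were tested with glmQLFit and glmQLFTest at an adjusted p of 0.05, isoacceptors with exact sign-flip tests and relations with 100000 permutations (scipy 1.17.1, with matplotlib 3.10.9, pandas 2.3.3 and numpy 2.4.6). The edgeR functions were tested on simulated data. DESeq2 1.42.0, other scalings and filters, repeated rows counted once, pooled counts, medians and leaving out libraries were alternatives. The depth of 1098 to 38208 miRNA counts limits the precision of rare miRNAs.

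The libraries, lists and pairs were chosen with earlier results of these data known. Named features were the 10 leading miRNAs and anticodons, the list and family members, the 3 highest and 3 lowest miRNAs and 2 highest and lowest anticodons by tagwise dispersion, the 5 most one-sided precursors each way, every class, and the largest entries. Positions were not used beyond the chromosome a tRNA row names. Arms, isoacceptors and the mitochondrial transcripts were compared within libraries, since both values come from the same library, and males were not paired with each other.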

Additional observations from a re-analysis of the deposited data

Results flagged for a closer look

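Among 82 quantities examined over the 10 libraries, 14 had a lowest or highest library separated from the next by a gap above Dixon's 95% critical value. Chance alone gives about 1 in 20 groups, but these quantities are not independent of each other. Moreover, miR-133a-3p, miR-1-3p, miR-206-3p and miR-204-5p were added to them by name, and all were flagged. The number flagged can therefore not be set against chance. Replicate 33 was the separated library in 5, replicate 26 in 4 and replicate 10 in 3, and those 3 were all added by name.

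In replicate 33, miR-145-5p held 2.73% (next 1.78%), miR-204-5p 1.64% (next 0.518%) and the list of miR-103 and miR-107 0.182% (next 0.554%). There the lincRNA class held 0.214% of ncRNA counts (next 0.0739%) and processed transcripts 0.0947% (next 0.0335%). In replicate 26, the neural miRNA list held 0.766% (next 0.497%), misc_RNA 2.05% of ncRNA counts (next 1.12%), srpRNA 0.576% of RNAcentral counts (next 0.388%) and the RNAcentral class ncRNA 0.0240% (next 0.0141%). In replicate 10, miR-133a-3p held 1.55% (next 0.00523%), miR-1-3p 0.253% and miR-206-3p 0.0995%, the last 2 with no count in any other control library. Replicate 25 had the highest ncRNA table share, at 23.9% (next 14.9%), and replicate 34 the highest GlyCCC share, at 3.61% of anticodon counts (next 2.73%). Replicate 33 held 1098 miRNA counts, so a share of 0.182% is 2 counts. The cause of these values was not tested.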

How the results depend on the processing

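Counting repeated rows once moved the table shares to 0.271% (miRNA), 47.9% (tRNA), 17.997% (ncRNA) and 33.8% (RNAcentral), and the 5 leading anticodons from 64.7% to 50.98%, or to 43.6% by the largest gene. Leaving RNAcentral out of the sum gave tRNA genes 84.1%. Leaving out mitochondrial rRNA gave misc_RNA 83.4% of the ncRNA table, and leaving out rRNA gave tRNA 75.4% and piRNA 7.90% of RNAcentral, by construction of the smaller denominator. The LeuCAA to LeuTAA ratio reversed to -0.37 by the largest gene.

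The common coefficient of variation moved without a filter (miRNA 0.687, ncRNA 0.639, RNAcentral 0.976), with DESeq2 (tRNA genes 0.274, anticodons 0.251, ncRNA 0.0695, RNAcentral 0.429), with library totals alone (ncRNA 0.658) and without replicates 26 and 33 (0.317, 0.254, 0.238, 0.226 and 0.425 in the order miRNA, tRNA gene, anticodon, ncRNA, RNAcentral). The cause was not tested. Likeness moved to 0.935 (ncRNA) and 0.704 (RNAcentral) with a mean of at least 10 counts.

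Arm calls numbered 46 with the library block, 46 with no replicate block, 46 by DESeq2 with the block, 45 by the exact sign-flip test, 60 without a filter and 35 of 39 with at least 20 counts, and no called precursor changed direction. Leaving out each library gave 39 calls of 44 tested (without replicate 9) to 47 of 52 (without replicate 33). For RNAcentral spread, leaving out each library gave 0.464 (without replicate 33) to 0.565. Of the 9 relations, none of which passed after adjustment, 3 changed sign when a library was left out: depth with miRNA share ran from -0.0126 (without replicate 9) to 0.194, germ cell with blood cell share from -0.503 to 0.0720 (without replicate 26), and blood cell with epithelial and muscle share from -0.305 to 0.0789 (without replicate 33). Under the other alternatives, 450 values of the main results stayed within the spread or on the same side of the threshold. For single features, lists and the other classes, 600 values stayed and 26 moved. Leaving out 1 library cannot move a mean share by as much as the SD between libraries. Those values were therefore bound to stay and say nothing on stability. No paired analysis was possible because, beyond comparisons within a library, each replicate number belongs to 1 male of 1 group. Alternatives taking the largest gene or leaving out replicates 26 and 33 were chosen after seeing the data. Replicate 33, with 1098 miRNA counts, limits rare miRNAs: a count of 0 there allows up to 0.273% by a limit of 3 counts.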
